A study of Cucumis melo with 62 samples.

Results

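Fruit of the melon (Cucumis melo) cultivars F39 and TTDV grown in a field in Georgia in 2019 was compared with fruit of the same cultivars grown in 4 other fields in 2019, in North Carolina, Uvalde (Texas), Arizona and California. The Georgia libraries were taken by their labels and number 5 of the 62 in the study, 3 of F39 and 2 of TTDV. The other 4 fields gave 24 libraries, 3 of each cultivar in each field. All 29 libraries were made from mature fruit harvested at approximately 45 days after flowering, and all carry the genotype label WT. Each field had equal weight in the comparison, and each cultivar had equal weight within a field. The labels name the tissue as fruit without saying which part, and no label tells whether the replicate libraries stem from separate plants or plots. The p-values therefore reflect the spread between these libraries alone, which may be technical.

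Melon fruit changes in flesh colour, sweetness, firmness and aroma as it ripens, and in climacteric types the plant hormone ethylene drives part of that change. Temperature, light, water supply and soil differ between fields, and each can alter how fast a fruit ripens and what it accumulates. Fruit picked at 1 fixed number of days after flowering can therefore be at a different point of ripening in different fields, which is background here and was not measured.

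Values are deposited on a log2-like scale (variance-stabilised counts), called units below. Where the text gives reads, these are the recovered read counts of a gene divided by the library's size factor. A doubling moves the value by 0.405 units from 10 reads, by 0.812 from 100 reads and by 0.975 from 1000 reads, so the differences of weakly read genes are compressed. A count of 0 allows up to 3 reads, for counting error only. No table given here pairs the deposited gene IDs with product names, so genes are named by ID alone and no gene group or marker list could be read.

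The Georgia libraries held 14563897 to 27157946 reads (median 23589362), and the 24 libraries of the other fields held 6251302 to 31333150 (median 18635102). A Georgia library detected 16073 to 19582 genes with a read, and a library of the other fields 17058 to 20287. The 10 most abundant genes took 7.61% to 16.7% of a Georgia library and 4.54% to 15.01% of a library elsewhere. TTDV Georgia replicate 2 had the fewest reads at Georgia and the 16073 genes, fewer than any library elsewhere. F39 Georgia replicate 3 had the 16.7%, above any library elsewhere. The count of called genes over both cultivars, given below, fell most when either of these libraries was left out. Whether depth or the share of abundant genes played a part was not tested.

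Some libraries stood apart from their labels before any comparison was made. Across 110 genes that separate the cultivars in North Carolina, Arizona, California and Uvalde 2018, F39 Georgia replicate 1 lay on the TTDV side for 7.27% of them, replicate 2 for 28.2% and replicate 3 for 31.8%. The TTDV Georgia libraries lay on the F39 side for 3.64% and 15.5%. All 6 libraries from Uvalde 2019 lay on the other cultivar's side for 87.3% to 97.3% of these genes. Since both cultivars have equal weight in each field, the comparison over both cultivars takes the same value whichever way the Uvalde labels run. The comparisons within a single cultivar do not have this property. The counts that rest on these libraries are given with and without them, as are the named genes whose call then ends or whose difference moves by over 1.5 times. Leaving out F39 Georgia replicates 2 and 3 leaves F39 Georgia with replicate 1 alone.

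Correlations across genes (which are not independent replicates) ran from 0.920 to 0.953 between the 3 F39 Georgia libraries, and the 2 TTDV Georgia libraries correlated at 0.979. Over both cultivars the lowest correlation within a field was 0.919 at Georgia, 0.945 in Arizona, 0.871 in California, 0.850 in North Carolina and 0.828 at Uvalde 2019. Of all 38 libraries of F39 and TTDV, the one most like F39 Georgia replicate 1 was F39 Arizona replicate 1 (0.954), that most like replicate 2 was F39 California replicate 3 (0.965), and that most like replicate 3 was TTDV Indiana replicate 1 (0.958). TTDV Georgia replicate 1 was closest to TTDV California replicate 2 (0.986), and TTDV Georgia replicate 2 to TTDV Georgia replicate 1. So 1 of the 5 Georgia libraries had its nearest library in its own field, against 6 of 6 in Arizona, 6 of 6 in California, 5 of 6 in North Carolina and 4 of 6 at Uvalde 2019. The median SD of a gene was 0.390 units in F39 Georgia and 0.202 in TTDV Georgia, within the range of 0.199 to 0.477 over the other groups. The value of TTDV Georgia rests on 2 libraries and each of the others on 3, so it is not directly comparable.

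Over both cultivars, 880 genes were higher and 731 were lower in Georgia fruit than in the mean of the other 4 fields. These 1611 genes are 9.27% of the 17383 tested (limma, Benjamini-Hochberg adjusted p under 0.05), 5.06% higher and 4.21% lower. The higher genes differed by a median of 0.88 units and the lower by a median of -0.69. Of the higher genes, 320 differed by at least 1 unit, as did 122 of the lower genes. At an unadjusted p under 0.05 there were 4399 genes. The higher genes made up 54.6% of the calls, 51.4% after quantile normalization and 51.9% with sample weights. They made up 65.6% of the 1627 calls when limma's voom was run on the recovered reads. The count rested on some single Georgia libraries, and leaving out either TTDV one left that group with 1 library. It stayed near 1611 without F39 Georgia replicate 1 (1566) or F39 Georgia replicate 2 (1709). It was 25 without TTDV Georgia replicate 2, 853 without TTDV Georgia replicate 1 and 612 without F39 Georgia replicate 3. It was 735 without F39 Georgia replicates 2 and 3, and 678 without Uvalde 2019.

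**Figure D1:**
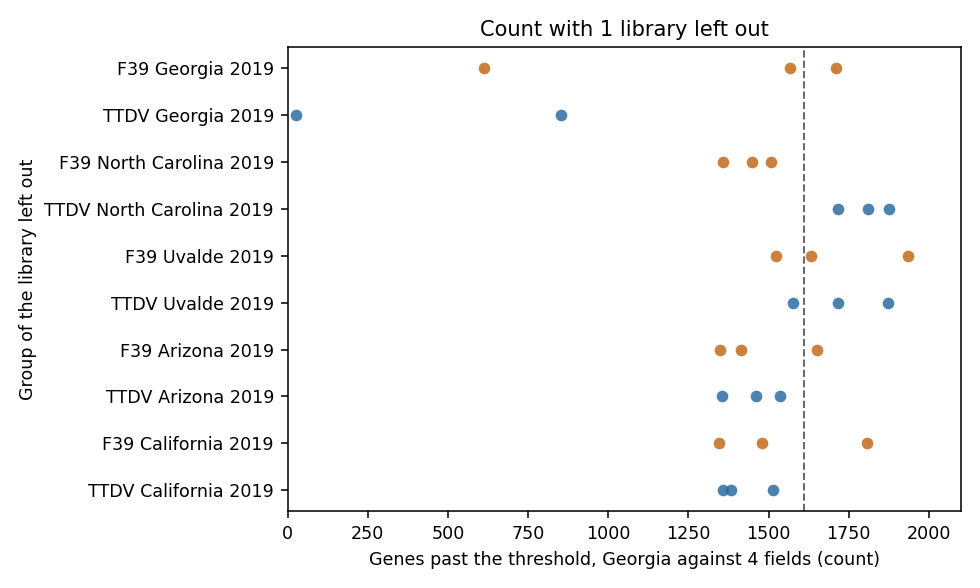
The number of genes past the threshold for Georgia against the other 4 fields over both cultivars (x axis, count) when 1 library is left out, with the groups of the library left out on the y axis, F39 in orange and TTDV in blue. The dashed line is the count of 1611 with all libraries, and the lowest point, 25, is the fit without TTDV Georgia replicate 2.

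The genes that differed were spread over all levels of abundance. Below a mean of 100 reads, 6.93% of 7090 genes passed the threshold, with 251 higher and 240 lower. Between 100 and 1000 reads the share was 11.2% of 7087 genes, 404 higher and 391 lower. Between 1000 and 10000 reads it was 10.1% of 3045 genes, 209 higher and 98 lower. At 10000 reads or more it was 11.2% of 161 genes, 16 higher and 2 lower. The balance of higher against lower genes therefore leaned to the higher side among the abundant genes. Over all genes tested the median difference also rose with level, from -0.086 units below 100 reads to 0.094 at 10000 or more.

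No gene had all 5 Georgia libraries beyond all 24 libraries of the other fields, which is 0% of the genes tested. By the same measure against the other 23 libraries, Uvalde 2019 had 39 genes above and 1 below, North Carolina 6 above and 8 below, California 10 above and 0 below, and Arizona 3 above and 1 below. With 4 of the 5 Georgia libraries required, 29 genes lay above all 24 and 37 lay below. The Georgia library that fell inside the range of the others was F39 replicate 1 or 2 for 26 of the 29 genes above and for 31 of the 37 genes below. Leaving out F39 replicate 1 gave 26 genes with no overlap, leaving out F39 replicate 2 gave 31, and leaving out F39 replicates 2 and 3 gave 79. Leaving out any other single library gave at most 5. With fewer Georgia libraries the condition is easier to meet. Of the 66 genes with 4 of 5 libraries beyond, 23 of those above and 33 of those below were past the threshold.

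Field by field, Georgia had the highest field mean for 836 of the 880 higher genes and the lowest for 714 of the 731 lower genes. Over all 17383 genes tested, Georgia had the highest mean for 3641 and the lowest for 4204. These positions follow in part from how the genes were chosen and are a description. The distance to the single fields was uneven. The median of Georgia minus the field over the higher genes was 1.22 units for Uvalde 2019, 0.99 for North Carolina, 0.62 for Arizona and 0.60 for California. Over the lower genes it was -0.96 for Uvalde 2019, -0.71 for North Carolina, -0.52 for Arizona and -0.54 for California. Uvalde 2019 was the farthest field for 569 higher and 482 lower genes, while California was the farthest for 21 and 27. A single field carried over 50% of the summed difference for 40 higher and 45 lower genes, so for most of the called genes more than 1 field contributed.

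Read in single libraries, the 880 higher genes had a median above the mean of the other fields in every Georgia library, to different extents. Their median difference from the mean of the other 4 fields was 0.51, 0.34 and 0.80 units in F39 Georgia replicates 1, 2 and 3, and 0.99 and 1.27 in TTDV Georgia replicates 1 and 2. The 3 TTDV California libraries, which belong to the compared fields, read 0.82 to 0.95. The 3 F39 California libraries read -0.55 to -0.12. Within California the cultivars thus stood on opposite sides of the mean, and TTDV California lay above all 3 F39 Georgia libraries. Arizona libraries read -0.02 to 0.42, North Carolina libraries -0.49 to 0.09 and Uvalde 2019 libraries -0.70 to -0.19. These values come from the libraries that chose the genes and carry no test.

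The 731 lower genes gave a mirror image. Their median difference was -0.51, -0.37 and -0.72 units in F39 Georgia replicates 1 to 3 and -0.74 and -1.03 in the TTDV Georgia replicates. TTDV California read -0.55 to -0.53 and F39 California 0.03 to 0.34. The highest value of any library was 0.55, in TTDV Uvalde 2019 replicate 2.

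In reads, the 880 higher genes took 8.63% to 15.7% of each Georgia library. They took 13.3% to 15.7% of each TTDV California library and 2.54% to 5.26% of each Uvalde 2019 library. The 731 lower genes took 1.31% to 2.47% of a Georgia library and 3.65% to 5.20% of a Uvalde 2019 library. Arizona libraries gave 7.21% to 12.4% to the higher genes and 2.28% to 3.95% to the lower genes. On both sides the Georgia and Uvalde 2019 libraries did not overlap, while Georgia overlapped with TTDV California and with Arizona. These shares come from the libraries that chose the genes and carry no test.

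**Figure D2:**
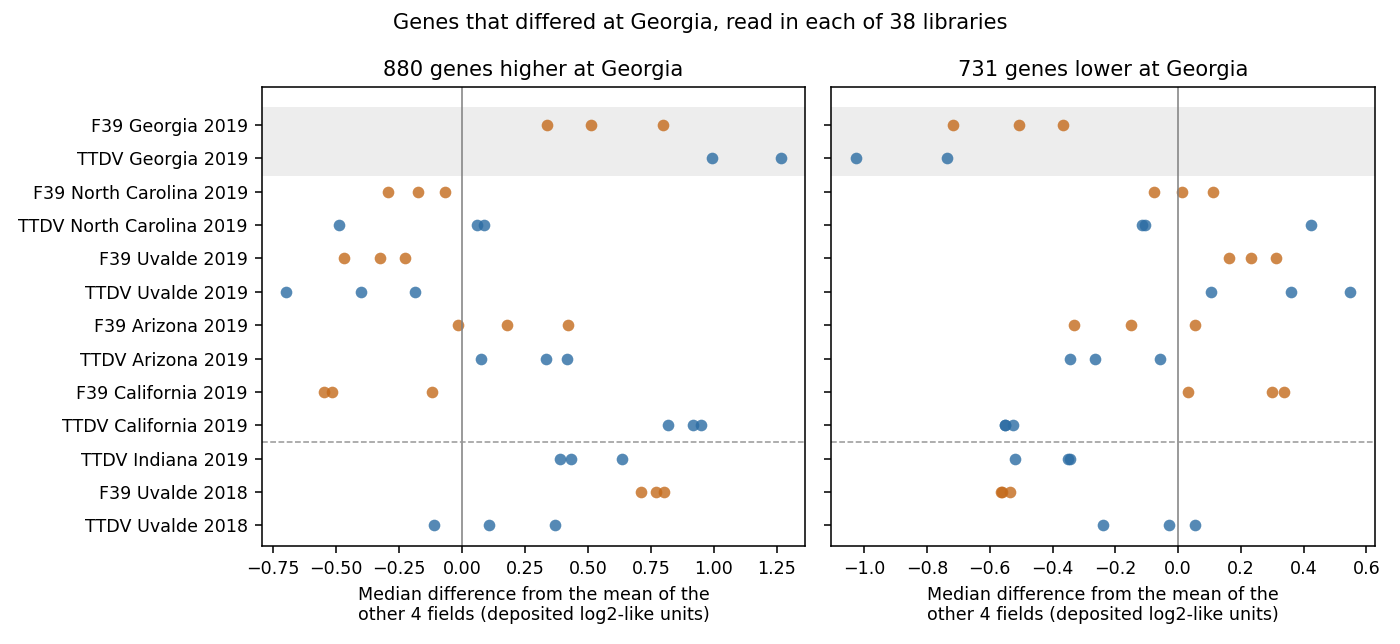
The median difference from the mean of the other 4 fields (x axis, deposited log2-like units) over the 880 higher genes (left) and the 731 lower genes (right) in each of 38 libraries, 1 point a library, F39 in orange and TTDV in blue. Georgia is on the grey band, and the groups under the dashed line took no part in the comparison; TTDV California (0.82 to 0.95 on the left) lies among the Georgia libraries.

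The genes named for this comparison are the 2 higher and 2 lower called genes of largest difference whose Georgia group means lay beyond every other group mean, since no gene was free of overlap. All 4 gene IDs carry no product name here. Their values are shown by library before the test.

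MELO3C010779.2 was read at 6506, 466 and 2107 reads in F39 Georgia replicates 1 to 3 and at 1885 and 1348 reads in the TTDV Georgia replicates. The lowest, median and highest reads were 17.2, 304 and 807 in North Carolina, 0.793, 14.4 and 87.7 at Uvalde 2019, 14.5, 258 and 999 in Arizona, and 4.29, 108 and 1785 in California. Of the Georgia libraries, 3 lay above all 24 others, while TTDV replicate 2 and F39 replicate 2 lay inside the range of California. The difference was 3.49 ± 0.69 units (SE, adjusted p = 0.00384, limma with Benjamini-Hochberg adjustment), and without TTDV Georgia replicate 2 the adjusted p was 0.0743. The adjusted p was 0.0137 within F39 and 0.176 within TTDV.

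MELO3C010662.2 was read at 10307, 1455 and 2319.9 reads in F39 Georgia and at 2398 and 2085 reads in TTDV Georgia. It had 58.4, 605 and 1247 reads (lowest, median, highest) in North Carolina, 30.2, 49.4 and 91.7 at Uvalde 2019, 142, 390.3 and 1000.1 in Arizona, and 46.8, 626 and 1616 in California. At Uvalde in 2018, outside the comparison, the gene had 187, 1392 and 4248.5 reads, which overlaps with Georgia. All Georgia libraries but F39 Georgia replicate 2 lay above all 24 libraries of the other 4 fields of 2019. F39 Georgia replicate 1 stood far above the other 4 Georgia libraries. The difference was 3.26 ± 0.55 units (SE, limma adjusted p = 0.00137), and the highest adjusted p over all 39 alternative settings was 0.0391.

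On the lower side, MELO3C028434.2 was read at 5.32, 0.473 and 3.26 reads in F39 Georgia and at 22.5 and 10.5 in TTDV Georgia. North Carolina had 47.2, 183 and 529 reads (lowest, median, highest), Uvalde 2019 60.8, 393 and 454, Arizona 1.64, 40.4 and 120.0, and California 0, 66.8 and 274. Georgia lay below every library of North Carolina and Uvalde 2019 and overlapped with Arizona and California. The difference was -2.07 ± 0.39 units (SE, limma adjusted p = 0.00265), and 0.0843 was the adjusted p without TTDV Georgia replicate 2.

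MELO3C034899.2 had 25.1, 0 and 0 reads in F39 Georgia and 29 and 2.11 in TTDV Georgia. North Carolina had 0, 168 and 324 reads (lowest, median, highest), Uvalde 2019 9.52, 77.7 and 449, Arizona 7.38, 64.9 and 132, and California 8.47, 27.8 and 119. The Georgia libraries overlapped with each of the other fields. The difference was -1.64 ± 0.50 units (SE, limma adjusted p = 0.0372). The adjusted p was 0.0532 without Uvalde 2019 and 0.344 without F39 Georgia replicates 2 and 3. The call was lost in 10 of 39 alternatives, among them each fit that left out 1 of F39 Georgia replicate 2 (adjusted p = 0.0752), F39 replicate 3 (0.112), TTDV replicate 1 (0.0613) or TTDV replicate 2 (0.328).

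**Figure D3:**
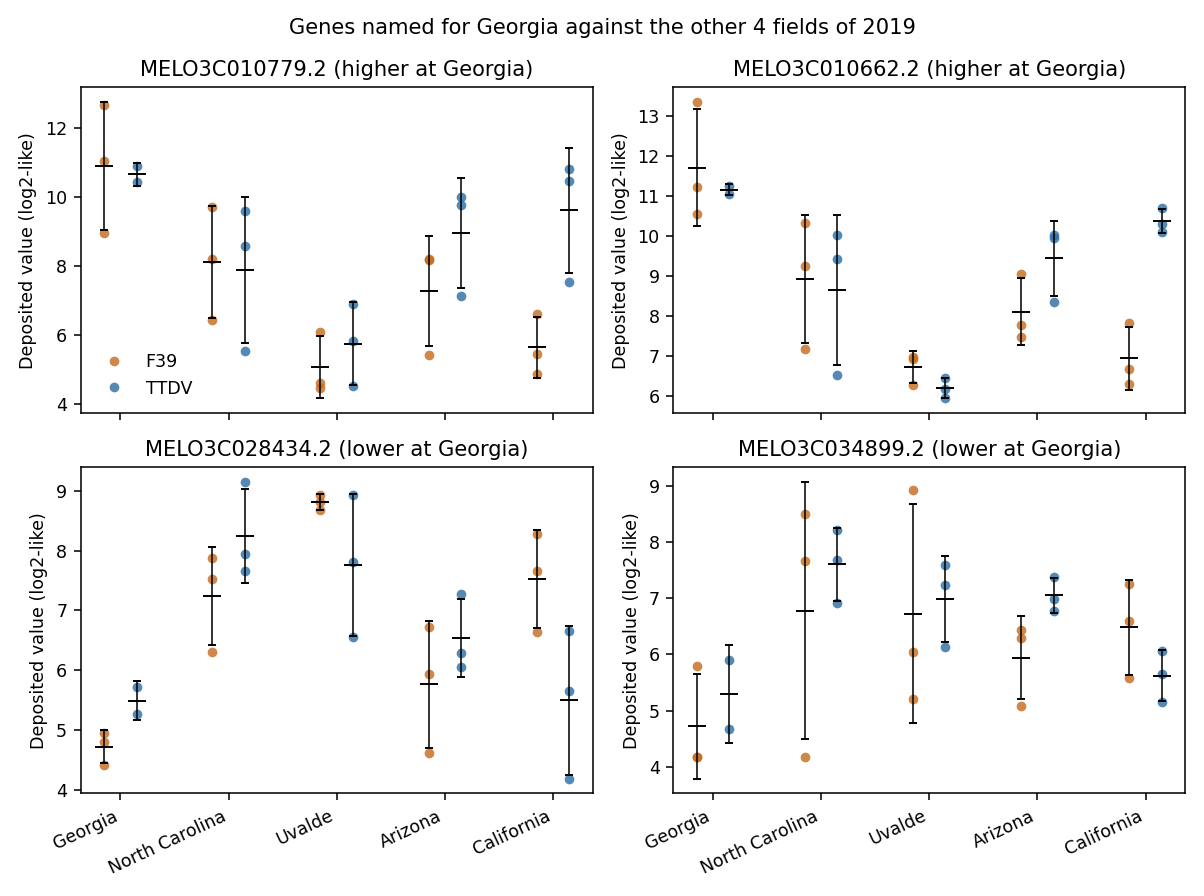
Deposited values (y axis, log2-like) of the 4 genes named for Georgia against the other 4 fields, by field (x axis), 1 point a library, F39 in orange and TTDV in blue, with black bars for the group mean and SD (n = 3, and n = 2 for TTDV Georgia). Georgia is at the high end in the upper panels and at the low end in the lower panels, with some overlap in each panel.

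Set against 1 field at a time, Georgia fruit differed in the largest number of genes from Uvalde 2019 and in the smallest from California. The order of Arizona and California turned without F39 Georgia replicates 2 and 3, when the counts were 114 against Arizona and 206 against California. These 4 comparisons share the 5 Georgia libraries, so their results are given side by side. Against Uvalde 2019, 4510 genes passed the threshold (25.9% of those tested), 2010 higher (11.6%) and 2500 lower (14.4%). Against North Carolina, 2699 genes did (15.5%), 1513 higher (8.7%) and 1186 lower (6.82%). Against Arizona there were 241 (1.39%), 101 higher (0.581%) and 140 lower (0.805%). Against California there were 38 (0.219%), 11 higher (0.0633%) and 27 lower (0.155%). At an unadjusted p under 0.05 the counts were 6587, 5229, 2681 and 2194 in the same order. A comparison of counts does not test whether the fields differ from each other in their distance to Georgia, and this was not tested.

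**Figure D4:**
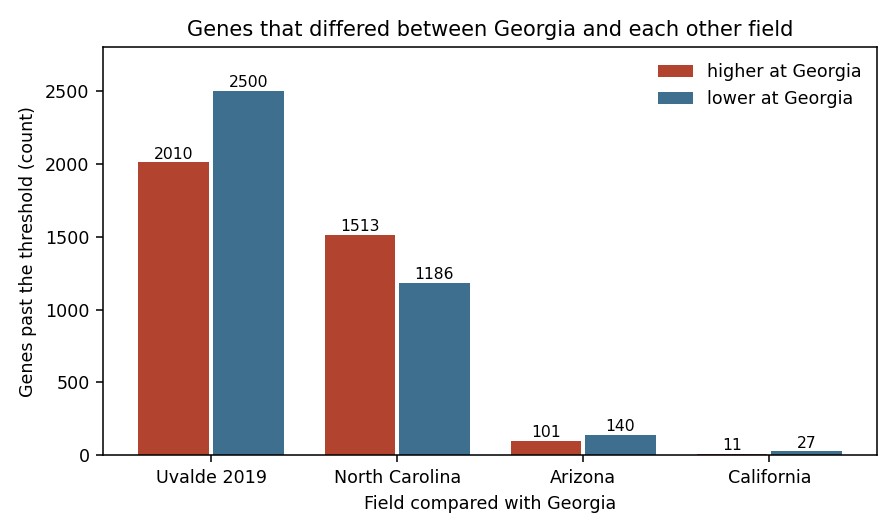
Genes past the threshold (y axis, count; limma, Benjamini-Hochberg adjusted p under 0.05) for Georgia against each of the other 4 fields (x axis), higher at Georgia in red and lower in blue. The counts run from 2010 higher and 2500 lower against Uvalde 2019 down to 11 higher and 27 lower against California.

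Genes with all 5 Georgia libraries beyond all 6 libraries of the other field numbered 1043 against Uvalde 2019 (6% of the genes tested), 785 against North Carolina (4.52%), 505 against Arizona (2.91%) and 223 against California (1.28%). Among these, 424 above and 578 below passed the threshold against Uvalde 2019, and 340 above and 309 below against North Carolina. Against Arizona 38 above and 77 below passed, and against California 1 above and 19 below. So most of the non-overlapping genes of the Arizona and California comparisons did not pass the test. The median difference of the called genes was 1.04 and -0.92 units (higher and lower) against Uvalde 2019, 1.00 and -0.89 against North Carolina, 1.19 and -0.97 against Arizona, and 1.17 and -1.10 against California. Only genes past the threshold enter these medians, so they do not compare the sizes of the differences between the fields.

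Against Uvalde 2019, MELO3C021688.2 and MELO3C010779.2 were the genes named as higher. MELO3C021688.2 had 21072, 13921 and 488652 reads in F39 Georgia and 76353 and 102948 in TTDV Georgia, against 116, 1005 and 2029 (lowest, median, highest) at Uvalde 2019. The groups did not overlap, and F39 Georgia replicate 3 stood far above all other libraries. The difference was 6.68 ± 0.91 units (SE, limma adjusted p = 1.49e-05). Georgia overlapped with Arizona (highest 43666 reads) and with California (highest 113669) for this gene. MELO3C010779.2, described above, was higher by 5.37 ± 0.84 units (limma adjusted p = 6.91e-05).

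The genes named as lower than Uvalde 2019 were nearly unread at Georgia. MELO3C009034.2 had 4.56, 2.84 and 5.7 reads in F39 Georgia and 2.37 and 0 in TTDV Georgia, against 65.1, 28311 and 66086 (lowest, median, highest) at Uvalde 2019. MELO3C015419.2 had 3.04, 12.8 and 7.33 reads in F39 Georgia and 8.3 and 9.47 in TTDV Georgia, against 114, 37149 and 197718. Neither gene overlapped between the 2 fields. Each differed by -8.97 units, with an SE of 0.92 for MELO3C009034.2 (limma adjusted p = 4.05e-07) and of 1.34 for MELO3C015419.2 (3.77e-05). MELO3C009034.2 had medians of 4.71 reads in North Carolina and 0 in Arizona and California, with a highest value of 96.4 in California. MELO3C015419.2 had medians of 14.4, 1.94 and 3.19 reads in North Carolina, Arizona and California, with single libraries at up to 248 in North Carolina and 714 in California. At Uvalde in 2018 MELO3C009034.2 had 0.767 to 58254 reads, so there too some libraries were high. Without TTDV Georgia replicate 2 the count against Uvalde 2019 was 2407, and without F39 Georgia replicates 2 and 3 it was 3440.

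Against North Carolina, the genes named as higher were read throughout Georgia. MELO3C024582.2 had 2312, 2052 and 4569 reads in F39 Georgia and 15354 and 17525 in TTDV Georgia, against 3.44, 196 and 715 (lowest, median, highest) in North Carolina. All Georgia libraries lay above North Carolina, and the TTDV libraries lay above the F39 libraries. The difference was 5.34 ± 0.91 units (SE, limma adjusted p = 0.000373). Against Arizona, where it had a median of 6459.8 reads, the difference was 0.08 ± 0.91 (adjusted p = 0.988).

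MELO3C014433.2 had 689, 2509 and 30569.9 reads in F39 Georgia and 2206 and 2421 in TTDV Georgia, against 3.44, 49.3 and 193 in North Carolina. The fields did not overlap, and the difference was 5.20 ± 0.87 units (SE, limma adjusted p = 0.000337). F39 Georgia replicate 3 was the highest library of Georgia by a wide margin for this gene, as it was for MELO3C021688.2.

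The genes named as lower than North Carolina differed in how the rest of the fields stood. MELO3C022772.2 had 742, 3342 and 618 reads in F39 Georgia and 1529.8 and 1969 in TTDV Georgia, against 19433, 27688 and 71944 (lowest, median, highest) in North Carolina. Georgia lay below all North Carolina libraries, by 4.45 units (difference -4.45 ± 0.91, SE, limma adjusted p = 0.0017), and lay within the ranges of California (101 to 4514 reads) and Uvalde 2019 (417 to 58822 reads). MELO3C016562.2 had 95.7, 40.7 and 24.4 reads in F39 Georgia and 39.7 and 6.32 in TTDV Georgia, against 166, 645 and 128842 in North Carolina. The groups did not overlap, but 1 North Carolina library at 128842 reads stood far above that field's median. The difference was -4.55 ± 1.24 units (SE, limma adjusted p = 0.0137), and the adjusted p was 0.0785 without TTDV Georgia replicate 2 and 0.0846 without F39 Georgia replicates 2 and 3. The count against North Carolina was 988 without TTDV Georgia replicate 2, 1785 without TTDV Georgia replicate 1, 1749 without F39 Georgia replicate 3 and 1501 without F39 Georgia replicates 2 and 3.

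Against Arizona, the lower genes named were MELO3C025079.2 and MELO3C013159.2. MELO3C025079.2 had 708, 281 and 211 reads in F39 Georgia and 776 and 237 in TTDV Georgia, against 1527, 2539.7 and 4589.9 (lowest, median, highest) in Arizona. The fields did not overlap, and the difference was -2.60 ± 0.39 units (SE, limma adjusted p = 0.00168), with adjusted p at most 0.0428 in all 21 alternatives. In North Carolina the gene had 111 to 2468 reads, which spans the Georgia values.

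MELO3C013159.2 had 429, 1039 and 8.15 reads in F39 Georgia and 377 and 242 in TTDV Georgia, against 1338, 1567 and 2934 in Arizona. F39 Georgia replicate 3 was the lowest Georgia library by far and F39 replicate 2 came closest to Arizona, without overlap. The difference was -2.56 ± 0.63 units (SE, limma adjusted p = 0.0348), and the call was lost in 11 of 21 alternatives, with an adjusted p of 0.266 without TTDV Georgia replicate 2 and of 0.0829 without F39 Georgia replicates 2 and 3.

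The higher genes of the Arizona comparison were MELO3C006572.2 and MELO3C010662.2. MELO3C006572.2 had 2834, 1434 and 14658 reads in F39 Georgia and 14797 and 4394 in TTDV Georgia, against 151, 566 and 1098 (lowest, median, highest) in Arizona. All Georgia libraries lay above Arizona, whereas North Carolina (1531 to 15384 reads) covered the Georgia range almost in full. The difference from Arizona was 3.52 ± 0.82 units (SE, limma adjusted p = 0.0267), lost in 7 of 21 alternatives (adjusted p = 0.1 without F39 Georgia replicates 2 and 3), and that from North Carolina was 0.32 ± 0.82 (adjusted p = 0.849). MELO3C010662.2 was 2.66 ± 0.67 units above Arizona (limma adjusted p = 0.0391), a call lost in 10 of 21 alternatives.

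The Arizona count moved with many single libraries. Leaving out F39 Georgia replicate 1 raised it to 550. It was 82 without F39 Georgia replicate 3 and 11 without TTDV Georgia replicate 2. Without F39 Arizona replicates 2 or 3 it was 105 or 42, and without TTDV Arizona replicates 1, 2 or 3 it was 59, 106 or 153. Libraries outside the comparison, which enter only through the shared estimate of spread, also moved it, to 458 without TTDV North Carolina replicate 3 and to 414 without F39 Uvalde 2019 replicate 3. It was 507 without Uvalde 2019 and 114 without F39 Georgia replicates 2 and 3.

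Against California, which gave the lowest count, the genes named as lower differed more than those named as higher. MELO3C005246.2 had 0.76, 0 and 0 reads in F39 Georgia and 0 and 0 in TTDV Georgia, against 160.0, 356 and 837 (lowest, median, highest) in California. It was listed at no more than 10.1 reads in every library of North Carolina, Arizona and Uvalde 2019, so California alone was high. The difference from California was -4.32 ± 0.22 units (SE, limma adjusted p = 3.51e-14). The gene was also past the threshold as lower at Georgia against the mean of the 4 fields (-1.15 ± 0.18, adjusted p = 0.000709), although the differences from North Carolina (0.05 ± 0.22), Arizona (-0.06 ± 0.22) and Uvalde 2019 (-0.28 ± 0.22) were near 0.

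MELO3C019563.2 had 12.9, 34 and 13.9 reads in F39 Georgia and 14.2 and 5.26 in TTDV Georgia, against 105, 234 and 319 in California. The fields did not overlap, and the difference was -2.53 ± 0.24 units (SE, limma adjusted p = 1.38e-07). In contrast to MELO3C005246.2, it was also lower at Georgia than in North Carolina (-1.20 ± 0.24, adjusted p = 0.00155) and at Uvalde 2019 (adjusted p = 0.0032), while the difference from Arizona was -0.81 ± 0.24 (adjusted p = 0.0787). Both genes held their calls against California in all 21 alternatives.

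The genes named as higher than California differed by less than those named as lower, on a scale that compresses weakly read genes. MELO3C006968.2 had 647, 419.9 and 942 reads in F39 Georgia and 420.2 and 453 in TTDV Georgia, against 124, 263 and 329 in California. The difference was 1.04 ± 0.23 units (SE, limma adjusted p = 0.0434), with no overlap, and the call was lost in 13 of 21 alternatives. MELO3C015478.2 had 68.4, 23.6 and 140.2 reads in F39 Georgia and 31.4 and 82.1 in TTDV Georgia, against 0, 5.08 and 41.9 in California. These groups overlapped, the difference was 1.42 ± 0.31 units (SE, limma adjusted p = 0.0434), and the call was lost in 13 of 20 alternatives.

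The higher genes were 28.9% of the calls against California, and 14.0% after quantile normalization. Leaving out F39 Georgia replicate 2 gave a count of 140, leaving out replicate 1 gave 67 and leaving out replicate 3 gave 11. Without TTDV Georgia replicates 1 or 2 it was 14 or 8. Without F39 California replicates 1 or 2 it was 12 in each case, and without TTDV California replicates 1, 2 or 3 it was 12, 13 or 15. Among libraries outside the comparison, leaving out TTDV North Carolina replicate 3 gave 97 and leaving out F39 Uvalde 2019 replicate 3 gave 71. It was 15, 24 and 22 without F39 North Carolina replicates 1, 2 and 3, 22 without F39 Uvalde 2019 replicate 2 and 23 without TTDV Uvalde 2019 replicate 3. Leaving out an Arizona library gave 19 (F39 replicate 1), 14 (F39 replicate 2), 15 (TTDV replicate 2) or 19 (TTDV replicate 3). It was 119 without Uvalde 2019 and 206 without F39 Georgia replicates 2 and 3.

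Within F39, the 3 Georgia libraries were set against 12 F39 libraries of the other fields. In that comparison 271 genes passed the threshold (1.56% of those tested), 164 higher (0.943%) and 107 lower (0.616%), and 3072 did at an unadjusted p under 0.05. The median difference was 1.42 units for the higher genes and -1.03 for the lower. In 230 genes (1.32%) the 3 Georgia libraries lay beyond all 12 others, and 45 of those above and 25 of those below passed the threshold. Within TTDV, the 2 Georgia libraries were set against 12 others and 435 genes passed (2.5%), 248 higher (1.43%) and 187 lower (1.08%), with 3146 at an unadjusted p under 0.05. The medians were 1.49 and -1.04 units. In 885 genes (5.09%) both Georgia libraries lay beyond all 12 others, with 100 of those above and 109 of those below past the threshold. This condition is easier to meet with 2 Georgia libraries than with 3, so 885 and 230 do not compare the cultivars.

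Each of these counts rested on 1 Georgia library. Without F39 Georgia replicate 3 no gene passed in F39 (limma), with 1692 genes at an unadjusted p under 0.05. Without TTDV Georgia replicate 2 no gene passed in TTDV, with 845 at an unadjusted p under 0.05. No other tool was run on these reduced sets. The F39 count was 415 with F39 Georgia replicate 1 left out and 570 with replicate 2 left out. Among the compared libraries, it was 157 without F39 North Carolina replicate 3, 504 without F39 Uvalde 2019 replicate 3, 138 without F39 Arizona replicate 3, and 156, 174 and 486 without F39 California replicates 1, 2 and 3. Among TTDV libraries, which enter only through the shared estimate of spread, TTDV North Carolina replicate 3 left out gave 645 and TTDV Uvalde 2019 replicate 2 left out gave 482. The F39 count was 193 without Uvalde 2019 and 307 without F39 Georgia replicates 2 and 3. The TTDV count was 251 without TTDV Georgia replicate 1, 701 without F39 Uvalde 2019 replicate 3 and 54 without Uvalde 2019. The higher genes were 60.5% of the F39 calls, with 49.9% after quantile normalization and 74.5% with voom, and 57.01% of the TTDV calls, with 79.8% with voom.

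In F39, MELO3C018450.2 had 696, 1792 and 7040.3 reads at Georgia against 41.2, 120.0 and 665 (lowest, median, highest) in the 12 others. The groups did not overlap. In TTDV the gene had 86.5 and 15.8 reads at Georgia, inside the range of 11.7 to 332 of the other fields. The difference was 3.47 ± 0.79 units in F39 (SE, limma adjusted p = 0.0253) and -0.79 ± 0.94 in TTDV (0.686), and the difference between the cultivars was -4.26 ± 1.23 (adjusted p = 0.19). The call in F39 was lost in 3 of 25 alternatives. Its adjusted p was 0.324 without F39 Georgia replicate 3 and 0.0574 without Uvalde 2019, and without F39 Georgia replicates 2 and 3 the difference was 1.94 units (adjusted p = 0.502).

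MELO3C010662.2, described above, was the other gene named as higher in F39, at 4.03 ± 0.71 units (limma adjusted p = 0.00678). Without F39 Georgia replicate 3 its adjusted p was 0.0703. In TTDV it differed by 2.50 ± 0.84 units (adjusted p = 0.1).

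The genes named as lower in F39 were MELO3C003195.2 and MELO3C015888.2. MELO3C003195.2 had 170.2, 265 and 34.2 reads in F39 Georgia against 379.5, 1679 and 3811 in the 12 other F39 libraries. No library overlapped, and the difference was -3.06 ± 0.73 units (SE, limma adjusted p = 0.0307), with 0.332 without F39 Georgia replicate 3, 0.0505 without F39 Arizona replicate 3 and 0.27 without F39 Georgia replicates 2 and 3. The lack of overlap in F39 holds only with the Uvalde 2019 libraries as labelled. A Uvalde 2019 library labelled TTDV had 216 reads, below the 265 of F39 Georgia replicate 2. In TTDV Georgia MELO3C003195.2 had 169.5 and 91.6 reads, close to the median of 137 in the other TTDV libraries.

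MELO3C015888.2 had 24.3, 284 and 224 reads in F39 Georgia against 356, 586 and 4329 in the other F39 libraries. F39 Georgia replicate 1 was the lowest, and the groups did not overlap. The difference was -2.30 ± 0.61 units (SE, limma adjusted p = 0.0495), and the call was lost in 13 of 25 alternatives, 8 of which left out a single library (adjusted p up to 0.242, without F39 Georgia replicate 1). The adjusted p was 0.0562 without Uvalde 2019, and without F39 Georgia replicates 2 and 3 the difference was -3.90 units (adjusted p = 0.0296).

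In TTDV, MELO3C006851.2 had 4713 and 6192 reads at Georgia against 22.6, 148 and 4467 (lowest, median, highest) in the 12 others. The Georgia libraries lay above all of them, with a TTDV California library closest, since the highest value of California was 4467. In F39 Georgia the gene had 122, 266 and 1023 reads, inside the range of 12 to 1406 of the other F39 libraries. The difference was 4.34 ± 0.75 units in TTDV (SE, limma adjusted p = 0.00371) and 1.18 ± 0.64 in F39 (0.339), with a difference between the cultivars of 3.16 ± 0.99 (adjusted p = 0.231). Over 24 alternatives the TTDV difference ran from 3.87 to 4.85 units. The call was lost in 1 of them, which left out TTDV Georgia replicate 2.

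MELO3C009787.2 had 5860.3 and 4096 reads in TTDV Georgia against 17.7, 683 and 3751 in the other TTDV libraries. In F39 Georgia it had 2982, 1316 and 855 reads against 10.9, 158 and 2936. Georgia was above all others in TTDV and overlapped in F39. It passed the threshold in both cultivars, at 3.22 ± 0.83 units in TTDV (SE, limma adjusted p = 0.0329) and 3.08 ± 0.70 in F39 (0.0241). In TTDV the adjusted p was 0.213 without Uvalde 2019, 0.196 without TTDV Georgia replicate 1 and 0.67 without replicate 2.

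The lower genes of TTDV were MELO3C027603.2 and MELO3C014280.2. MELO3C027603.2 had 4.74 and 0 reads in TTDV Georgia against 9.53, 78.3 and 854 in the others, without overlap, and differed by -2.63 ± 0.61 units (SE, limma adjusted p = 0.0186). MELO3C014280.2 had 70.5 and 74.7 reads in TTDV Georgia against 147, 383 and 865, without overlap, and differed by -2.01 ± 0.50 units (adjusted p = 0.0273). In F39 Georgia it had 1019, 95.5 and 96.2 reads, so replicates 2 and 3 were somewhat above the TTDV libraries and replicate 1 was far above them. Each of these calls was lost in 5 of 24 alternatives, with adjusted p of 0.839 and 0.698 when TTDV Georgia replicate 2 was left out, 0.0665 and 0.151 when TTDV Georgia replicate 1 was, and 0.0658 and 0.0691 without Uvalde 2019.

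The F39 and TTDV comparisons share no library, so the genes called in one cultivar were read in the other. Of the 164 genes higher at Georgia in F39, 138 were also higher in TTDV (84.1%, against 45.2% of all genes tested), with a median of 0.54 units against -0.06 over all genes. Of the 107 lower in F39, 91 were lower in TTDV (85.05%, against 54.8% of all genes), with a median of -0.40 units. Of the 248 genes higher in TTDV, 212 were higher in F39 (85.5%, against 47.4%), and of the 187 lower in TTDV, 148 were lower in F39 (79.1%, against 52.6%). Genes past the threshold in both cultivars numbered 20, with 251 in F39 alone and 415 in TTDV alone. Genes are not independent replicates, so these shares are descriptions. Over both directions the share with the same direction was 74.6% for the F39 genes and 75.9% for the TTDV genes without Uvalde 2019. It was 64.2% and 64.7% without F39 Georgia replicates 2 and 3, the libraries that lay on the TTDV side for 28.2% and 31.8% of the cultivar genes. Without them F39 Georgia rested on replicate 1 alone. The part of those libraries in the likeness of the cultivars cannot be told apart from that smaller number, and was not tested.

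**Figure D5:**
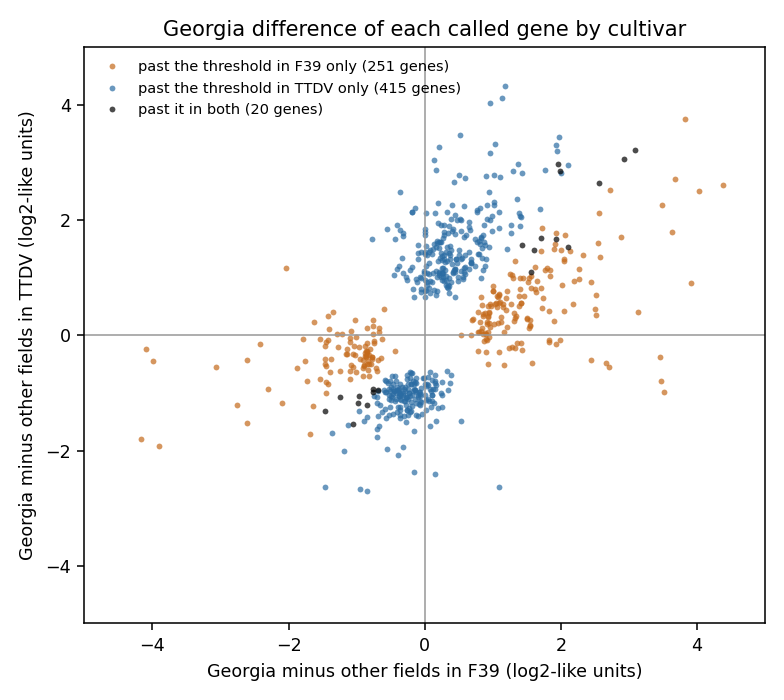
Georgia minus the mean of the other 4 fields in F39 (x axis) and in TTDV (y axis), in deposited log2-like units, for each gene past the threshold in F39 only (orange, 251 genes), in TTDV only (blue, 415 genes) or in both (black, 20 genes). Most points lie in the quadrants where both cultivars differ in the same direction.

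The difference between the cultivars in the Georgia difference was tested itself. No gene passed (0% of those tested; limma), with 1721 genes at an unadjusted p under 0.05, and voom on the recovered reads also gave 0. Calls past the threshold in 1 cultivar only are therefore not shown to differ between the cultivars. Without Uvalde 2019 no gene passed either, of 16850 tested. Leaving out F39 Georgia replicate 1 gave 30 genes. The count was 16 without TTDV Georgia replicate 1, 9 without TTDV North Carolina replicate 3, and at most 3 without any other single library. It was 162 without F39 Georgia replicates 2 and 3.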

How the data were processed

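RNA of melon fruit was sequenced per the labels' protocols from frozen powdered tissue, extracted with Trizol and treated with DNase, with an mRNA library kit. The authors deposited 1 table of variance-stabilised, log2-like values for 29980 gene IDs in the 38 libraries of F39 and TTDV. DESeq and DESeq2 are named, with no version, per the submitters' processing notes. Any aligner, counter, build or annotation is not given in the sources used here.

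In the deposited table the lowest log2-like value, 4.182278, is a count of 0. Inverting the transform returned whole reads (in each library at least 99.955% lay within 0.05 of one), with the totals and size factors. Groups follow the labels' cultivar, field and year. Tests used limma (version 3.58.1, under R 4.3.3) with 1 coefficient for each of the 13 groups over the 38 libraries, trend and robust moderation, and Benjamini-Hochberg adjustment within each comparison. Genes with at least 3 libraries at least 1 unit (about 9.08 reads) above the lowest value were tested. The named genes are, for each comparison, the 2 higher and 2 lower with the largest differences past the threshold and no overlap of libraries, filled where needed with genes whose Georgia group means lay beyond all group means compared. For the cultivar difference, which had none past the threshold, none was named. Scripts were tested on simulated data.

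The members and the lists, tests and alternatives were chosen with earlier results of these data known. The alternatives were no filter, a filter of 3 units (about 111 reads), quantile normalization, and a fit with neither trend nor robust moderation. Others were sample weights, a fit of the compared groups only, voom on recovered reads, and leaving out libraries. The replicate numbers only name libraries. The gene lists planned on product names were not run, because the reference gene table (USDA_Cmelo_AY_1.0) matched 0 of the IDs, and for the same reason no sequence or coordinate is printed. A table of 24 libraries of other cultivars was not used here.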

Additional observations from a re-analysis of the deposited data

Results flagged for a closer look

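MELO3C010662.2, which kept its call over both cultivars in all 39 alternatives, was far higher in F39 Georgia replicate 1 than in the rest of the field. That library had 10307 reads against 1455 to 2398 in the other 4 Georgia libraries, and its gap to the next was 0.747 of the range of the 5 on the deposited scale. MELO3C034899.2 had 0 reads in F39 North Carolina replicate 1 against 86.7 to 324 in the other 5 libraries of that field, a gap of 0.633 of their range. Such gaps were looked for in 30 sets of libraries, and 2 were found. Chance alone gives about 5 percent.

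Groups that took no part in the comparison also read the genes that differed at Georgia. In the 3 F39 Uvalde 2018 libraries, the genes higher at Georgia lay at a median of 0.771 units above the mean of the other 4 fields of 2019, and the genes lower at Georgia at -0.563. In the 3 TTDV Indiana libraries these medians were 0.434 and -0.35. In the 3 TTDV Uvalde 2018 libraries they were 0.109 and -0.0292. The F39 Uvalde 2018 libraries, at 0.712 to 0.800 for the higher genes, stood above F39 Georgia replicates 1 and 2 and beside replicate 3, and the Indiana libraries, at 0.389 to 0.637, stood among the F39 Georgia libraries. The genes had not been chosen on these libraries, but the value is taken against the same mean of 4 fields that chose them, so no test was made. Likewise the higher genes took 15.1% to 18.9% of the reads of the F39 Uvalde 2018 libraries, against 8.63% to 15.7% at Georgia.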

How the results depend on the processing

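No paired analysis was possible because the labels carry no replicate numbers shared between groups. The counts of genes past the threshold moved by over 1.5 times in the following settings. With sample weights they were 2651 over both cultivars, 2379 in TTDV, 103 for the cultivar difference, 4537 against North Carolina, 1800 against Arizona and 1210 against California. In a fit of the compared groups only they were 100 in F39, 149 in TTDV, 1109 against North Carolina, 1531 against Uvalde 2019 and 423 against Arizona. With voom they were 509 in F39 and 25 against California, and with no filter 7 for the cultivar difference. Without Uvalde 2019 they were 678 over both cultivars, 54 in TTDV, 507 against Arizona and 119 against California. Without F39 Georgia replicates 2 and 3 they were 735 over both cultivars, 162 for the cultivar difference, 1501 against North Carolina, 114 against Arizona and 206 against California. With both replicate 3 of TTDV from North Carolina and replicate 3 of F39 from Uvalde 2019 left out, they were 2586 over both cultivars, 1062 in F39, 1063 in TTDV, 85 for the cultivar difference, 939 against Arizona and 316 against California, while that against Uvalde 2019 was 5506, within 1.5 times. Genes free of overlap numbered 1 after quantile normalization, 1 without Uvalde 2019 and 79 without F39 Georgia replicates 2 and 3. The shares with the same direction in the other cultivar moved to 74.61% and 75.93% without Uvalde 2019 and to 64.17% and 64.66% without F39 Georgia replicates 2 and 3, for genes chosen in F39 and in TTDV. The causes were not tested.

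With 1 library of the groups compared left out in turn, the counts ranged from 25 to 1935 over both cultivars, 0 to 570 in F39, 0 to 567 in TTDV, 0 to 30 for the cultivar difference, 988 to 3223 against North Carolina, 2407 to 4764 against Uvalde 2019, 11 to 550 against Arizona, 8 to 140 against California, and 0 to 31 for genes free of overlap. Leaving out a library outside the groups compared, which enters only through the shared estimate of spread, gave up to 645 in F39, 701 in TTDV, 3288 against North Carolina and 5108 against Uvalde 2019. Where leaving out libraries left TTDV Georgia or F39 Georgia with 1, that library was assumed to vary like the other groups. Of 683 pairs of a named gene and an alternative, 576 kept the call, 107 lost it and 0 changed direction, and 11 of the 28 named results kept it throughout. With 2 libraries in TTDV Georgia and 3 in the other groups, the number of libraries limits the precision, and depth limits what can be said of genes near 0 reads.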
